A study of Mus musculus with 4 samples.

Results

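Interferon response genes, the genes that cells switch on after an interferon signal and the regulators that act on them, were described in the mouse small intestinal epithelium under a control and a ketogenic diet. The set holds 35 genes taken from a fixed list of symbols, out of 27998 genes in the deposited matrix, and all 35 were found there. Intestines of male mice on either diet were dissociated and single cells were profiled with the 10x 3' v2 chemistry, which counts each captured transcript by a unique molecular identifier (UMI). Each diet had 2 libraries, named here control 1 and 2 and ketogenic 1 and 2. A ketogenic diet is rich in fat and very low in carbohydrate, so that ketone bodies are made. The labels give no strain, age, time on the diet or number of animals behind a library, so p-values measure the spread between libraries, which may be technical.

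Interferons are secreted signals that bind paired receptors on the cell surface. Type I and type III interferons activate a complex that holds STAT2 and IRF9 and binds a DNA element called the interferon-stimulated response element (ISRE), whereas interferon gamma acts mainly at a second element, the gamma-activated site (GAS). In the gut, type III interferon is known as the main signal to epithelial cells, and a low tone of interferon response genes is present without overt infection. The induced proteins bind or cut viral RNA, modify other proteins with the ubiquitin-like ISG15, hold back virus entry and release, or tune the response itself.

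The promoters of members are shown first, searched for the ISRE and the GAS. RefSeq promoters (GRCm38.p6, 250 bases before to 50 after the start) were found for 27 of the 35 members. The ISRE core searched was GAAA, any 2 bases and GAAA, and the GAS was TTC, any 3 bases and GAA, on both strands, with overlapping matches allowed. The ISRE core occurred in 13 of the 27 members (48.1%) and in 3.99% of 27025 genes with a promoter. The GAS occurred in 8 members (29.6%) and in 9.55% of those genes. A match describes the letters and shows no binding. Of the 7 members that fell in at least 1 comparison below, 5 had a promoter entry and 2 of these, Ifit1 and Isg15, held an ISRE core.

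The 120 bases before the start of the 3 members that fell in all cells are given 5′ to 3′ on the gene's strand, with every ISRE core in capitals. Ifit1 (chr19:34640769-34640888, plus strand) held 2 separate matches on the opposite strand, Isg15 (chr4:156200819-156200938, minus strand) held 3 overlapping ones, and Oasl2 (chr5:114896814-114896933, plus strand) held 0 in this window. Oas1a (chr5:120907526-120907645, minus strand) and Oas1g (chr5:120887614-120887733, minus strand) are added as members with the same element that passed no test, chosen after their values were seen.
Ifit1: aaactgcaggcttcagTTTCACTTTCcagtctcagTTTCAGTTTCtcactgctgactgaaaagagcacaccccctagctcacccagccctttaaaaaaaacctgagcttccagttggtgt
Isg15: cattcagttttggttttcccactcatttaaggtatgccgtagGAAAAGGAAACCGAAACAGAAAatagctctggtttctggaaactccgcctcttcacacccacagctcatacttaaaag
Oasl2: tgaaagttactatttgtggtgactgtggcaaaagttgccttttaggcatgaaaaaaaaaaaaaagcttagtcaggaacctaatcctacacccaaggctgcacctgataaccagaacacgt
Oas1a: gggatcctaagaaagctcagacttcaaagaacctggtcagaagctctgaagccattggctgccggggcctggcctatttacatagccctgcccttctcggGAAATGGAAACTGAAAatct
Oas1g: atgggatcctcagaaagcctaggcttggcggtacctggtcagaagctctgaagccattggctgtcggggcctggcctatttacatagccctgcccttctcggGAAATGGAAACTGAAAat
Oas1a and Oas1g each held 2 overlapping matches next to the start, and neither gene passed the test in any comparison.

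The libraries held 3194 to 4896 cells and 27316428 to 34106639 UMIs, with a median of 6974.5 to 9040 UMIs per cell. Every cell carried 1 of 7 deposited epithelial types. Levels are given in CPM, which is UMIs scaled to an equal library total. Each type's markers were higher in it than in any other type in all 4 libraries, except that goblet markers in the Paneth class summed to 57003.5 to 98484.8 CPM, a range that overlapped that of goblet cells themselves. Of the cell barcodes, 109 occurred in more than 1 library. Members ranged from 32 UMIs in all cells (Gbp2) to 48153 (Ifitm3), and 4 had under 100 UMIs (Ifit3, Oas2, Rsad2 and Gbp2). In sums over a library, fewer cells with a transcript and less of it per cell cannot be told apart.

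Most members were lower on the ketogenic diet, and few passed the test singly. UMIs were summed per library and tested with edgeR's quasi-likelihood test, with Benjamini-Hochberg adjustment over all genes and a threshold of 0.05. In all cells, 34 members were tested, 3 fell and 0 rose, where 0.086% of all 12784 genes fell and 0.086% rose. Both ketogenic libraries lay below both control libraries in 25 of the 34 members, against 21.1% of all genes. They lay above in 1 member, Isg20, against 22.4%. The log2 fold change, ketogenic over control, was below 0 in 31 of 34 members (47.4% of all genes), with a median of -0.57 beside 0.01 over all genes. At an unadjusted p under 0.05, 23 members were lower (5.33% of genes). DESeq2, a second count test, called 6 of 33 members lower (1.1% of genes).

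**Figure D1:**
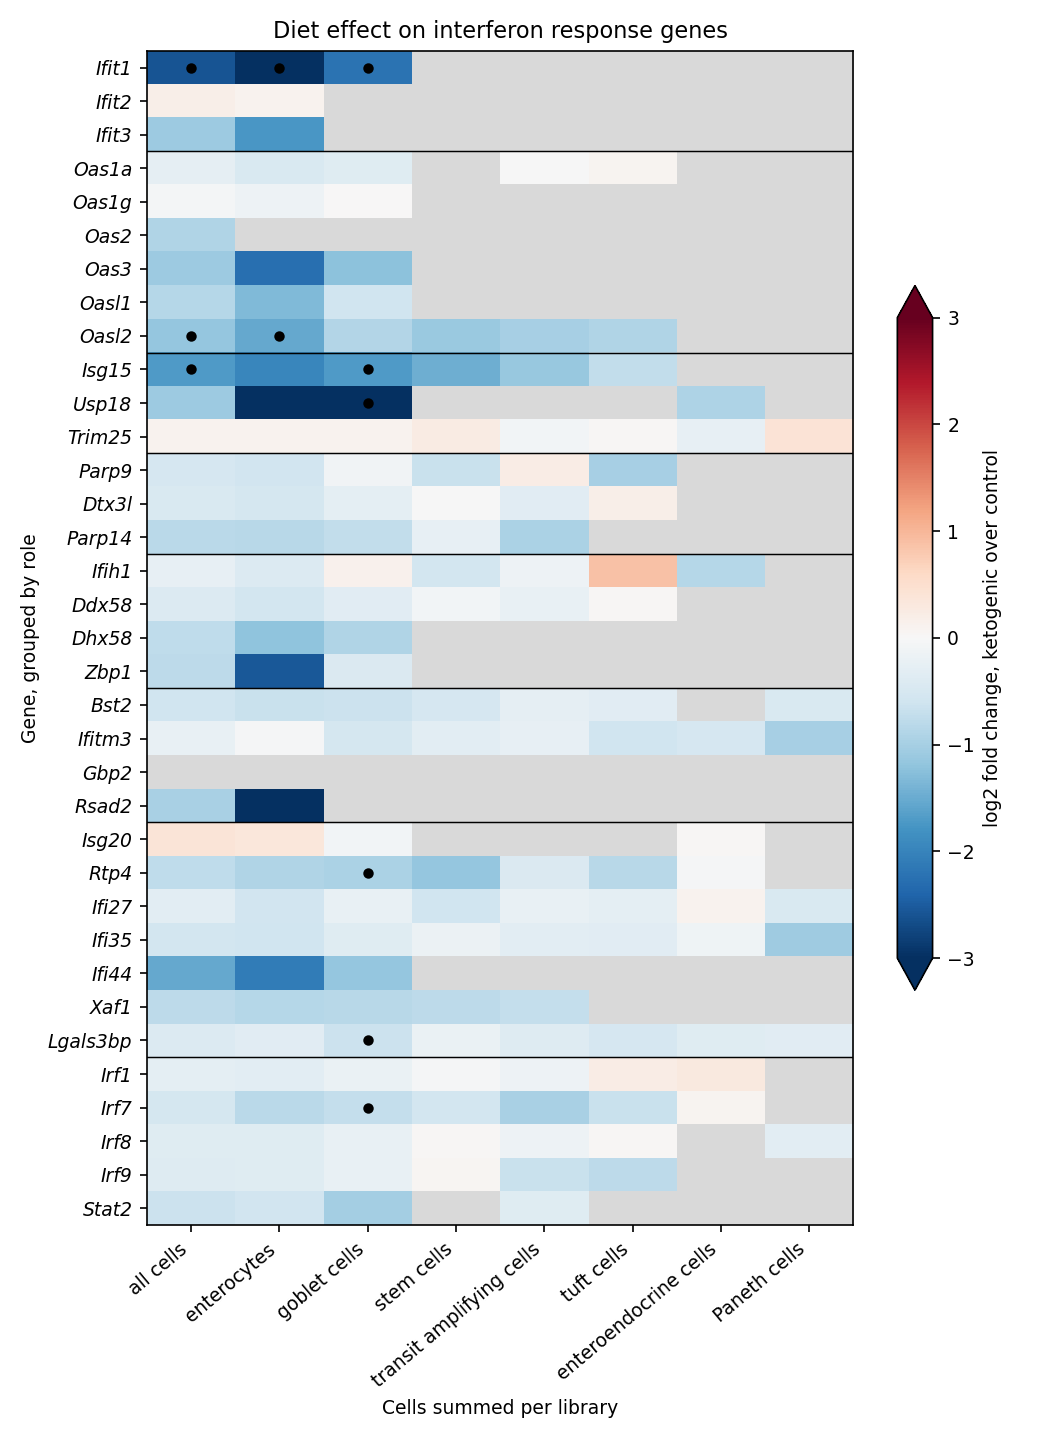
Log2 fold change of each of the 35 members (rows, grouped by role) in all cells and in each deposited type (columns), ketogenic over control. Blue is lower and red is higher on the ketogenic diet, colours end at 3 either way, grey marks members not tested, and a dot marks an adjusted p under 0.05 in edgeR. The 11 dots lie in all cells, enterocytes and goblet cells, and all are on the lower side.

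The 3 members that fell in all cells belong to 3 arms of the response. Ifit1 (chr19:34640871-34650009), which binds viral RNA, was at 4.40 (control 1) and 5.34 CPM (control 2) and at 0.630 and 0.968 CPM with the ketogenic diet. Oasl2 (chr5:114896936-114912234), a 2'-5'-oligoadenylate synthetase relative, was at 13.2 and 13.0 against 5.90 and 5.74 CPM. Isg15 (chr4:156199424-156200818), the ubiquitin-like modifier, was at 19.8 and 18.0 against 4.75 and 6.78 CPM. For each, the diets were far apart and the libraries of a diet close together. The log2 fold changes were -2.59 ± 0.27 (SE) for Ifit1, -1.17 ± 0.12 for Oasl2 and -1.71 ± 0.18 for Isg15, each with an edgeR adjusted p of 0.0327. Without ketogenic 2, Ifit1 and Oasl2 missed the threshold (adjusted p = 0.0671 and 0.145), and without ketogenic 1 so did Oasl2 (adjusted p = 0.0648). With only cells under 10% mitochondrial UMIs, which left out 38.0% to 45.0% of cells, Isg15 missed it (adjusted p = 0.0509). Averaged with equal weight over the 7 types and tested with limma on log2(CPM + 1), 0 members and 0 genes passed, with 14 members lower at an unadjusted p under 0.05 (3.52% of genes) and 31 below 0 (56.2%).

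The most abundant members differed by smaller factors in all cells and did not pass. Ifitm3 was at 449.6 and 405 CPM in the controls against 331 and 402 CPM, Lgals3bp at 149.7 and 144 against 111 and 109 CPM, and Ifi35 at 71.1 and 57.8 against 44.2 and 44.3 CPM. In these 3 both ketogenic libraries were lower, and the edgeR adjusted p-values were 0.562, 0.174 and 0.194. Irf8, at 103 and 64.1 against 60.6 and 69.4 CPM, Irf1, at 51.6 and 25.6 against 31.4 and 32.0 CPM, and Ifi27, at 42.3 and 74.8 against 47.2 and 46.5 CPM, overlapped, with 1 control library high in each. Usp18 was at 2.18 and 1.67 against 1.00 and 0.807 CPM, Rtp4 at 10.9 and 12.7 against 5.60 and 8.26 CPM, and Irf7 at 13.3 and 14.3 against 10.2 and 8.94 CPM. These were lower without overlap and did not pass (adjusted p = 0.307, 0.281 and 0.214). The other 22 members tested had log2 fold changes of -1.54 (Ifi44) to 0.38 (Isg20).

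Enterocytes are the absorptive cells and were the largest class. Of 33 members tested, 2 fell and 0 rose, where 0.103% of genes fell and 0.0769% rose. Both ketogenic libraries lay below both controls in 25 members (20.5% of genes) and above them in 0 (22.9%). The median log2 fold change was -0.60 beside 0.02 over all genes, and 30 members were below 0 (46.9% of genes). At an unadjusted p under 0.05, 23 members were lower (5.45% of genes), and DESeq2 called 6 lower (0.989% of genes).

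Among the IFIT proteins, Ifit1 in enterocytes was at 5.13 and 6.16 CPM in the controls and 0.277 and 0.414 CPM on the ketogenic diet. These are 94 and 119 UMIs against 4 and 7, so the ketogenic level rests on few molecules. The fall was -3.98 ± 0.34 (log2, edgeR adjusted p = 0.0116), and it just missed the threshold without ketogenic 1 (adjusted p = 0.0510). Its neighbour Ifit3 was at 0.873 and 0.880 against 0.277 and 0.237 CPM and did not pass (adjusted p = 0.284). Ifit2 overlapped between diets, at 0.927 and 0.673 against 0.831 and 0.887 CPM.

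The OAS family makes 2'-5' oligoadenylates that activate RNase L, and its OAS-like members bind RNA or sensors. Oasl2 in enterocytes was at 12.5 and 11.6 CPM in the controls against 3.88 and 4.50 CPM, with no overlap. It fell by 1.53 ± 0.17 on the log2 scale (edgeR adjusted p = 0.0366), but it did not pass without ketogenic 1 (adjusted p = 0.161) or ketogenic 2 (adjusted p = 0.0985). Oasl1 was at 4.04 and 3.47 against 1.45 and 1.54 CPM, and Oas3 at 1.47 and 1.03 against 0.346 and 0.177 CPM. Neither passed (adjusted p = 0.145 and 0.213). Oas1a, at 5.07 and 5.80 against 3.18 and 4.73 CPM, and Oas1g, at 1.20 and 1.40 against 0.761 and 1.54 CPM, did not pass either. Reads of such close paralogs can be split or dropped in counting, so values within the OAS and IFIT families are uncertain in that respect.

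In the ISG15 system, Isg15 in enterocytes was at 23.0 and 14.5 CPM against 4.29 and 5.26 CPM. The diets did not overlap, but the 2 controls differed from each other, and the log2 fold change of -1.97 ± 0.25 just missed the threshold (edgeR adjusted p = 0.0507). It passed in 8 of 11 alternatives. Usp18, which strips ISG15 from proteins and blocks the interferon receptor, had 25 and 15 UMIs in the controls against 0 and 4 (adjusted p = 0.284). Trim25, a ubiquitin and ISG15 ligase that also activates RIG-I, overlapped at 23.2 and 23.1 against 27.1 and 22.5 CPM.

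The RNA and DNA sensors were lower in both ketogenic libraries in 4 of 4 members in enterocytes (20.5% of all genes), and none passed. Zbp1, a sensor of Z-form nucleic acid, was at 6.44 and 2.95 CPM in the controls against 0.692 and 0.887 CPM (log2 -2.55 ± 0.47, edgeR adjusted p = 0.122). Ifih1 (MDA5) was at 15.8 and 12.7 against 10.9 and 10.6 CPM, and Ddx58 (RIG-I) at 7.64 and 6.42 against 4.91 and 4.67 CPM. Dhx58 (LGP2), which tunes the other two, was at 3.55 and 2.74 against 0.969 and 1.72 CPM.

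Restriction factors, which act on virus entry, release or replication, ranged widely in enterocytes. Ifitm3, a membrane protein that blocks virus fusion, overlapped between diets in enterocytes at 393 and 391 against 361 and 406 CPM (log2 -0.03 ± 0.11). Bst2 (tetherin), which holds budding virus at the membrane, was at 35.03 and 31.7 against 19.7 and 22.4 CPM (adjusted p = 0.128). Rsad2 (viperin) had 14 and 20 UMIs against 1 and 2. That is a control over ketogenic ratio of 9.45, with an exact interval of 2.97 to 48.1 for counting error only, and it did not pass (adjusted p = 0.145). Lgals3bp, a secreted glycoprotein, was at 166 and 158 against 132 and 124 CPM, and Ifi35 at 82.2 and 62.9 against 50.4 and 45.4 CPM. Both pairs were lower without overlap, and neither passed (adjusted p = 0.331 and 0.249).

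Of the transcription factors, Irf7 in enterocytes was at 9.55 and 9.52 CPM against 5.19 and 5.74 CPM (log2 -0.80 ± 0.17, edgeR adjusted p = 0.170). Irf9, which anchors the complex on the ISRE, was at 16.0 and 15.5 against 12.4 and 11.9 CPM (adjusted p = 0.412). Both were lower without overlap, while Stat2, at 5.13 and 3.57 against 3.88 and 2.01 CPM, overlapped. Among induced genes of other or less settled function, Rtp4 was at 8.40 and 10.7 against 4.15 and 6.03 CPM, Xaf1 at 8.51 and 6.42 against 4.08 and 4.14 CPM, and Ifi44 at 2.46 and 1.19 against 0.485 and 0.355 CPM. None of these 3 overlapped and none passed (adjusted p = 0.266, 0.258 and 0.247). Isg20 was low and overlapped, at 0.818 and 1.35 against 1.32 and 1.42 CPM.

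Goblet cells secrete mucus. Of 30 members tested in them, 6 fell and 0 rose, where 0.21% of genes fell and 0.31% rose. Both ketogenic libraries lay below both controls in 20 members (19.1% of genes) and above in 0 (19.4%). The median was -0.56 beside 0.00 over all genes, and 27 members were below 0 (49.9% of genes). At an unadjusted p under 0.05, 16 were lower (4.54% of genes), and DESeq2 called 1 of 29, Isg15 (0.123% of genes).

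Isg15 in goblet cells was at 27.0 and 49.9 CPM in the controls against 9.33 and 14.3 CPM. Control 2 was the highest and both ketogenic libraries lay below both controls. The fall was -1.69 ± 0.26 (log2, edgeR adjusted p = 0.0050), and it passed in 11 of 11 alternatives. Ifit1 was at 8.74 and 12.1 against 2.39 and 2.04 CPM, a fall of 2.22 ± 0.35 on the log2 scale (adjusted p = 0.0054). These are 34 and 46 UMIs against 10 and 9, and the 10 richest cells held 97.1% and 73.9% of the control UMIs. Usp18 had 10 and 13 UMIs against 1 and 2, a ratio of 8.52 with a counting interval of 2.58 to 44.3, and fell (log2 -2.99 ± 0.62, adjusted p = 0.0476). Usp18 did not pass without control 1, ketogenic 1 or ketogenic 2 (adjusted p = 0.0951, 0.327 and 0.161) or with sums thinned to the lowest total (0.0580), and it was too low to be tested without control 2.

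Irf7 (chr7:141262706-141266481), the transcription factor that amplifies type I interferon output, was at 34.2 and 39.3 CPM in goblet controls against 21.5 and 22.9 CPM. It fell by 0.72 ± 0.15 on the log2 scale (edgeR adjusted p = 0.0427). Rtp4 (chr16:23520291-23614222), a zinc-finger protein induced by interferon, was at 20.3 and 24.8 against 9.81 and 13.4 CPM. Its fall was -0.95 ± 0.20 (adjusted p = 0.0476, against 0.111 without ketogenic 1 and 0.0752 in cells under 10% mitochondrial UMIs). Lgals3bp (chr11:118392751-118402092) was at 78.7 and 83.9 against 49.0 and 54.2 CPM. Its fall was small and even across libraries, at -0.65 ± 0.11 (adjusted p = 0.0110). In each of these genes the 2 libraries of a diet lay closer to each other than to the other diet.

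Other goblet members came near without passing. Ifitm3 was at 184 and 151 CPM against 106 and 127 (log2 -0.52 ± 0.11, edgeR adjusted p = 0.0577). Oasl2 was at 17.5 and 25.3 against 14.6 and 8.61 CPM, with both ketogenic libraries lower (adjusted p = 0.169). Stat2, the partner of IRF9 in the complex that binds the ISRE, was at 9.25 and 12.1 against 5.74 and 4.76 CPM (adjusted p = 0.169).

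**Figure D2:**
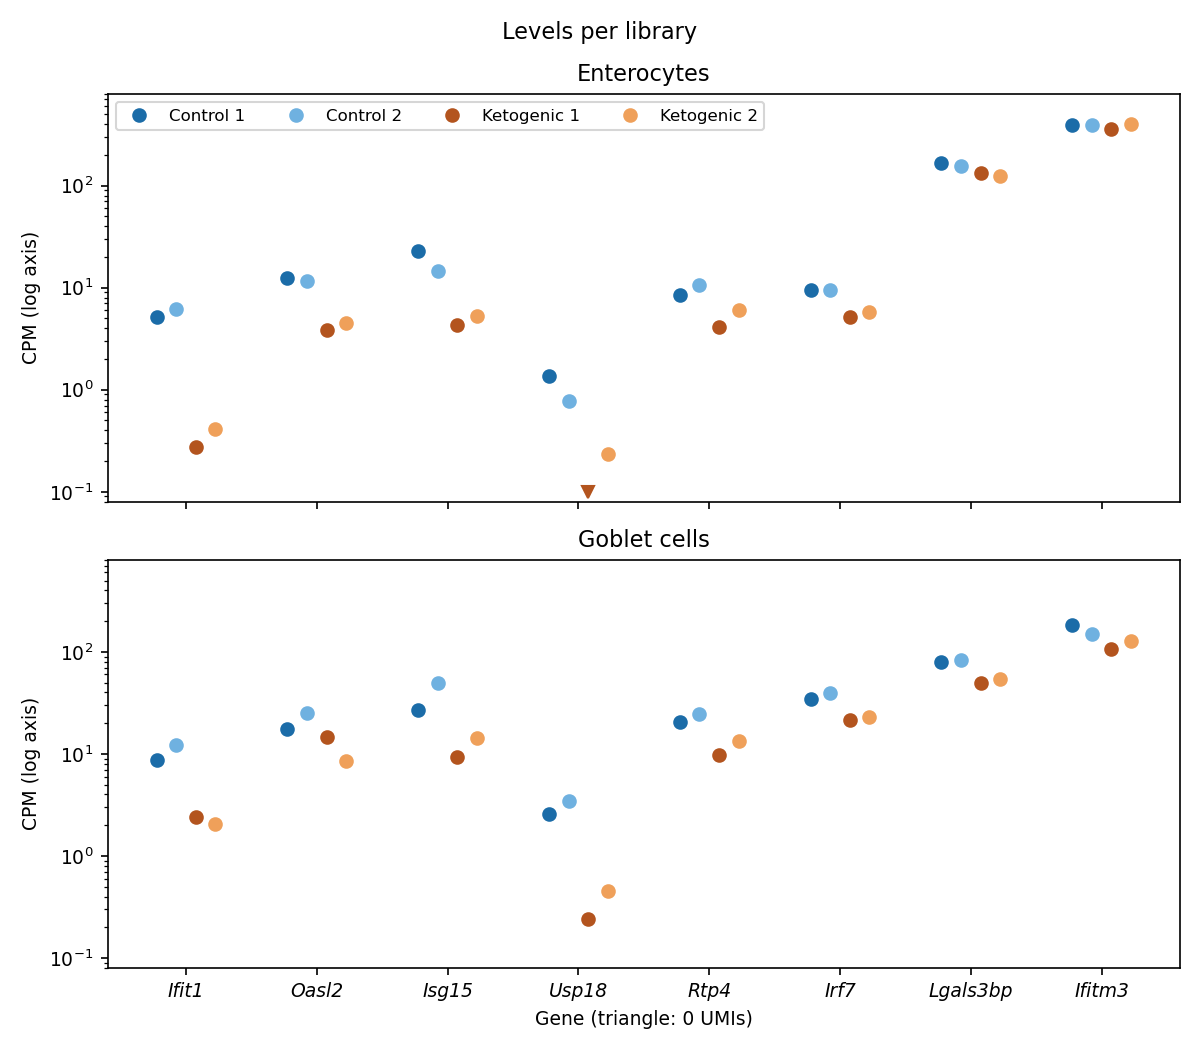
CPM on a log axis of 8 members in enterocytes (top) and goblet cells (bottom), with 1 point per library and a triangle for 0 UMIs. Ifit1, Isg15, Oasl2, Usp18, Rtp4, Irf7 and Lgals3bp have both ketogenic points under both control points in each panel, and Ifitm3 overlaps in enterocytes only.

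In stem cells, 19 members were tested and 0 fell or rose (0.0736% of genes fell, 0.263% rose), with 7 lower at an unadjusted p under 0.05 (2.82% of genes) and 0 of 6 by DESeq2 (0.0852%). Both ketogenic libraries were lower in 9 members (17.5% of genes) and higher in 1, Trim25 (17.4%), and 16 members were below 0 (49.9%). Isg15 was at 11.2 and 7.99 against 4.17 and 2.92 CPM (log2 -1.46 ± 0.40, edgeR adjusted p = 0.194), with no overlap. Rtp4 was at 13.3 and 12.9 against 4.17 and 6.72 CPM (adjusted p = 0.230). Ifitm3 was at 1074 and 716 against 676 and 753 CPM, so that control 1 alone stood high. Lgals3bp was at 139 and 126 against 118 and 113 CPM, Ifi35 at 49.5 and 40.6 against 39.4 and 39.4 CPM, and Ifi27 at 46.0 and 91.0 against 48.9 and 45.6 CPM. Irf1, at 41.4 and 28.3 against 39.4 and 28.6 CPM, and Irf8, at 81.2 and 54.4 against 65.0 and 70.1 CPM, overlapped. The median over the members was -0.32, and it was -0.13 without control 1.

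In transit amplifying cells, the dividing descendants of stem cells, 21 members were tested and 0 passed (0.258% of genes fell, 0.457% rose). At an unadjusted p under 0.05, 7 were lower (4.44% of genes), and DESeq2 called 0 of 20 (0.259%). Both ketogenic libraries were lower in 9 (19.6% of genes) and higher in 0 (20.1%), and 20 members were below 0 (48.8%). Lgals3bp was at 154 and 153 against 118 and 116 CPM (log2 -0.39 ± 0.09, edgeR adjusted p = 0.105). The median was -0.31.

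The rare classes gave 0 calls with edgeR, and DESeq2 gave 0 lower as well (0.0148% of genes lower in tuft cells, 0.0141% in enteroendocrine cells and 0% in the Paneth class). Tuft cells, the chemosensory cells, had 18 members tested (0% of genes fell, 0.0144% rose), with 3 lower at an unadjusted p under 0.05 (2.76%). Their ketogenic libraries were both lower in 4 (16.5% of genes) and both higher in 1, Ifih1 (17.5%). Enteroendocrine cells, the hormone-secreting cells, had 11 tested (0.0291% of genes fell, 0.0291% rose), 2 of them lower at an unadjusted p under 0.05 (2.43%). In these cells 5 were lower without overlap (16.1% of genes) and 1, Irf1, was higher (16.8%). The Paneth class had 7 tested (0% of genes fell, 0.44% rose), 2 of them lower at an unadjusted p under 0.05 (3.08%), and 4 were lower without overlap (20.1% of genes) and 0 higher (19.1%). Medians were -0.34, -0.13 and -0.46, while 51% of genes were below 0 in tuft cells and in the Paneth class and 49.5% in enteroendocrine cells. These classes had 289338 to 1235533 UMIs per library, which left 17, 24 and 28 of the 35 members too low to test.

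The falls were compared between types directly, as the diet effect in another type minus that in enterocytes. Over 6 types and 185 tests of members, 4 differences passed. Among all genes, the share that was lower was 0.0605% in stem, 0.00871% in transit amplifying, 0.146% in goblet, 0.0978% in enteroendocrine and 0.119% in tuft cells. The share that was higher was 0.199% in stem cells, 0.3% in the Paneth class and 0.0847% in tuft cells, with the others given beside their members. Zbp1 was less reduced in goblet cells, by 2.11 ± 0.37 on the log2 scale (edgeR adjusted p = 0.0063, where 0.464% of genes were higher). Its goblet UMIs were 76 and 58 against 51 and 60, while enterocytes had 118 and 57 against 10 and 15. Without control 1 this difference was 1.64 and did not pass (adjusted p = 0.410). Zbp1 also differed in enteroendocrine cells (3.59 ± 0.79, adjusted p = 0.0152, 0.122% of genes higher), on 1 and 5 UMIs against 13 and 8. That difference did not pass without control 1, ketogenic 1 or ketogenic 2 (adjusted p = 0.380, 0.339 and 0.112).

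Ifitm3 was more reduced in the Paneth class, at 130.3 and 134 CPM against 66.5 and 66.4 (difference -0.99 ± 0.25, edgeR adjusted p = 0.0427, 0.0442% of genes lower). It passed in 0 of 7 alternatives. Ifit1 in transit amplifying cells had 1 and 3 UMIs against 0 and 10 (difference 5.52 ± 0.99, adjusted p = 0.0120, 0.0784% of genes higher). Without ketogenic 2 it turned to -0.85, so that library decided the sign. For Ifit1, Isg15 and the other members that fell in goblet cells, the difference from enterocytes did not pass.

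The 2 control libraries were not alike, and in enterocytes a part of the set was higher in control 1. In all cells, 5 members were at least 1.5 times higher in control 1 and 2 were at least 1.5 times higher in control 2. In enterocytes, 10 members were at least 1.5 times higher in control 1 than in control 2, and 3 were at least 1.5 times higher in control 2. These include genes with few UMIs in the controls, Gbp2 (8 and 3) and Oas2 (0 and 4). The share of all genes that differed by as much was not taken. Irf1 (chr11:53770014-53778374), the early factor of the interferon gamma response, was at 58.5 and 25.7 CPM in the controls and 32.5 and 35.4 CPM with the ketogenic diet. Irf8, at 116 and 70.7 against 70.1 and 76.5 CPM, had the same shape, with control 1 alone high. Parp9, Dtx3l and Parp14, which modify proteins with ADP-ribose and ubiquitin in the response, were at 20.6, 28.4 and 12.8 CPM in control 1. They were at 13.1, 18.5 and 8.18 CPM in control 2, and at 10.1 to 12.5, 16.0 to 16.8 and 5.44 to 6.30 CPM in the ketogenic libraries. Parp9 (chr16:35938470-35972605) and Dtx3l (chr16:35926511-35939151) overlap on opposite strands, and the sources used here do not say whether counting used strand.

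Without control 1, 2 members changed sign. In enterocytes, Irf1 went from -0.31 to 0.40 and Irf8 from -0.35 to 0.05 on the log2 scale. Ifit1 stood at -4.11, Isg15 at -1.60 and Oasl2 at -1.47, and 28 of 33 members stayed below 0. Ifi27, a mitochondrial protein induced by type I interferon, behaved the other way, at 36.8 and 65.3 CPM in the controls and 33.1 and 35.9 CPM in the ketogenic libraries. Its log2 fold change was -0.57 with all libraries and -0.92 without control 1. In goblet cells 1 member was at least 1.5 times higher in control 1, Ifit3, on 2 and 1 UMIs. There 9 were at least 1.5 times higher in control 2, among them Ifit2 on 1 and 2 UMIs. The share of all genes was not taken for goblet cells either.

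**Figure D3:**
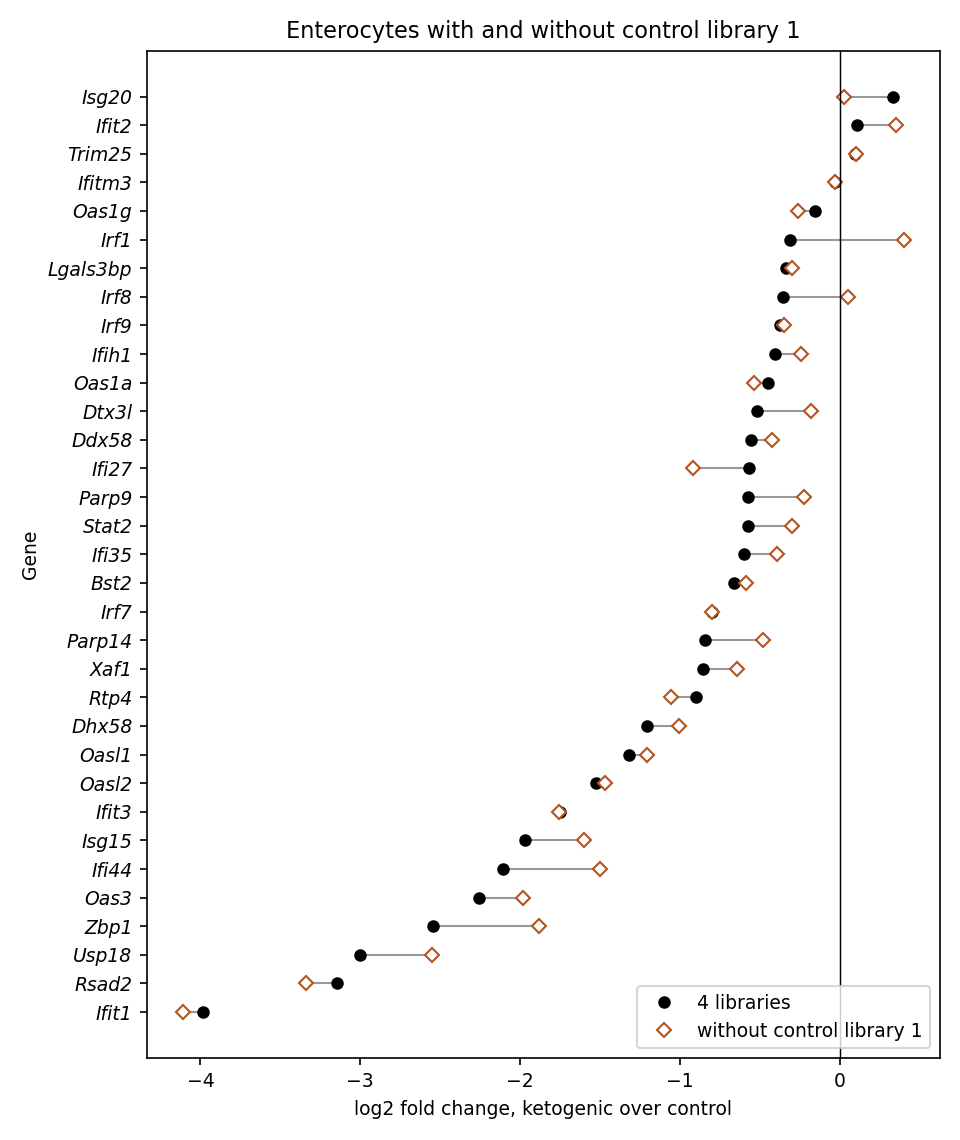
Log2 fold change in enterocytes, ketogenic over control, of the 33 tested members with all 4 libraries (black) and without control library 1 (open diamonds). Ifit1 and Oasl2 keep their place, while Irf1 and Irf8 cross 0.

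A separate list of 32 interferon gamma genes (MHC class II, immunoproteasome and guanylate-binding genes) showed where control 1 stood apart. Its summed level in all cells was 2811 CPM in control 1, 1137 in control 2 and 1063 and 1154 in the ketogenic libraries. The median log2 fold change of its 21 tested genes was -1.13, and -0.02 without control 1. None passed in all cells (12 at an unadjusted p under 0.05, 0 by DESeq2). In stem cells 1 fell (0.0736% of genes), Cd74, the invariant chain of MHC class II, at 1119 and 75.6 against 87.1 and 108 CPM (log2 -2.57 ± 0.56, edgeR adjusted p = 0.0416), with control 1 alone high. B2m, the light chain of MHC class I, was at 919.7 and 657 against 630.4 and 672 CPM, and Psmb10, an immunoproteasome subunit, at 331 and 216 against 186 and 199 CPM. The part of this state in the values of Irf1, Irf8 and the Parp9 group was not tested.

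No receptor or kinase gene passed the test in all cells, and the interferon genes were too low to be tested. Of 21 interferon genes, including Ifnb1, Ifng, Ifnl2 and Ifnl3, 20 had 0 UMIs in all cells and Ifnz had 1, in control 2. A count of 0 in 15053 cells allows a share of up to 0.0199% of cells with a UMI, for counting error only. Of the 6 receptor genes, 0 passed (1 at an unadjusted p under 0.05, 0 by DESeq2), with Ifngr1 at 80.6 and 88.4 against 80.1 and 89.8 CPM and Ifngr2 at 78.9 and 69.9 against 86.3 and 92.0 CPM. Jak1, a receptor kinase, was at 42.6 and 42.2 against 38.9 and 38.8 CPM and did not pass. Of 12 sensing genes, 10 were tested and 0 passed (2 unadjusted, 0 by DESeq2). Irf3 was at 55.7 and 56.9 against 48.0 and 48.8 CPM, and Mavs at 18.7 and 13.9 against 14.7 and 13.8 CPM.

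Among 6 feedback inhibitors, 1 rose in goblet cells (0.31% of genes rose) and 0 passed in all cells (2 unadjusted, 1 by DESeq2), where Ptpn2 was at 33.5 and 40.4 against 30.1 and 33.9 CPM and Ptpn1 at 23.7 and 25.9 against 23.1 and 24.0 CPM. Socs3, which blocks cytokine receptors that signal through STAT3, had 13 and 6 UMIs against 38 and 88 in goblet cells and rose by 2.55 ± 0.43 on the log2 scale (edgeR adjusted p = 0.0101). Of 36 further interferon-induced genes in the matrix, 28 were tested in all cells and 0 passed. Their median was -0.37, with 15 unadjusted and 4 by DESeq2, in either direction and with no share of all genes to set beside them. In goblet, stem and transit amplifying cells 1 fell each, where 0.21%, 0.0736% and 0.258% of genes fell. In transit amplifying cells it was Ly6e, a membrane protein, at 126 and 143 against 78.1 and 90.8 CPM (log2 -0.67 ± 0.11, edgeR adjusted p = 0.0122). Ifi27l2a, a relative of Ifi27, fell in goblet cells, from 19.5 and 53.3 to 5.50 and 6.80 CPM (log2 -2.55 ± 0.38, adjusted p = 0.00476). It also fell in stem cells, from 10.2 and 27.7 to 5.96 and 5.26 CPM (-1.88 ± 0.38, adjusted p = 0.0161). Its 2 controls differed as those of Ifi27 did.

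A few cells carried most Ifit1 transcripts. Cells are not replicates, so the following is a description. In enterocytes, Ifit1 was seen in 43 of 2156 and 46 of 2771 control cells, and in 4 of 1748 and 6 of 1799 ketogenic cells. The richest cell held 20 and 25 UMIs in the controls against 1 and 2. The 10 richest cells held 63.8% and 68.1% of all Ifit1 UMIs of the control enterocytes. None of these cells held a UMI of 17 leukocyte genes.

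Isg15 had the same shape with more cells. Its richest enterocyte held 71 and 21 UMIs in the controls against 3 and 2, and 8 and 9 control cells held 5 or more UMIs against 0 and 0. Without the 10 richest cells of each library, a choice made on the outcome, the level was 12.9 and 9.71 CPM against 2.97 and 4.23 CPM. Oasl2 was spread more evenly, with 46 of 230 and 35 of 225 control UMIs in the 10 richest cells. In goblet cells, 3 and 11 control cells held 5 or more Isg15 UMIs against 1 and 1 ketogenic cells. For Oasl2 the goblet numbers were 0 and 0 against 2 and 0.

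**Figure D4:**
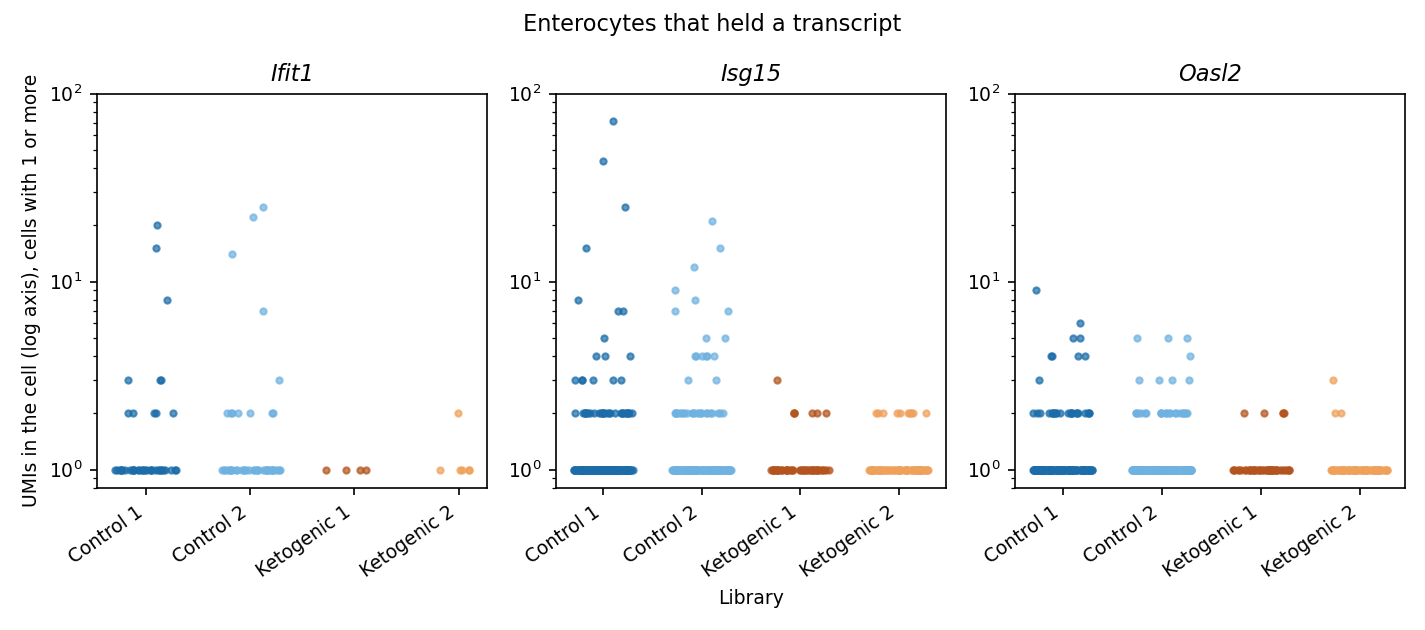
UMIs of Ifit1, Isg15 and Oasl2 in each enterocyte with at least 1 (log axis), by library, with points spread sideways at random. Cells with 5 or more UMIs occur in both control libraries and in neither ketogenic library.

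Shares of cells gave the same order at equal depth. With each cell thinned to 2000 UMIs, which left out 126 shallow enterocytes of control 2, Isg15 was seen in 2.97% and 2.50% of control enterocytes. The exact 95% intervals were 2.29% to 3.78% and 1.94% to 3.16%. The ketogenic shares were 0.973% (0.568% to 1.55%) and 1.28% (0.812% to 1.91%). Unthinned, the shares were 9.18% and 5.63% against 3.09% and 4.39%. No deposited type is known to lack Isg15, so no background share could be taken. The lowest type, enteroendocrine cells, had 1 Isg15 UMI in each library, in 63 to 186 cells with a median depth of 5033 to 6624.5 UMIs, against 7342 to 9629 in enterocytes.

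Control enterocytes with Ifit1, Isg15 or Oasl2 held another interferon response gene more often than those without. After thinning, 12 of 14 and 11 of 16 control enterocytes with Ifit1 held another of 18 interferon response genes, against 28.7% and 22.2% of those without it. For Isg15 the shares were 45.3% and 65.2% against 27.0% and 20.7%, and for Oasl2 44.4% and 35.6% against 27.7% and 21.3%. In the ketogenic libraries the shares for Isg15 were 29.4% and 39.1% against 15.8% and 16.8%, over 17 and 23 cells with it. Only 2 and 2 ketogenic enterocytes with Ifit1 were left after thinning, too few to compare. In control goblet cells the shares for Isg15 were 42.1% and 76.7% against 29.5% and 27.2%, over 19 and 30 cells with it.

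The list of 10 measured T-cell genes summed to 16.2 and 23.2 CPM in control enterocytes and to 0.268 and 32.8 CPM in ketogenic enterocytes, so only ketogenic 1 was low and the diets overlapped. Cd2 was at 0 in enterocytes. A list of 5 genes shared by all leukocytes, including Ptprc, was lower with the members in enterocytes. It was at 2.15 and 3.39 CPM in the controls against 0.201 and 1.71 CPM, with no gene at 0. These are 39 and 66 UMIs against 3 and 28. In goblet cells that list was at 0.262 and 0.512 against 0.939 and 0.693 CPM, with Ptprc at 0. These are 1 and 2 UMIs against 4 and 3, too few to compare. T-cell genes in goblet cells summed to 0 to 1.39 CPM, with 7 of 10 genes at 0, including Cd3d, Cd3e, Cd3g and Cd8a. Macrophage and dendritic genes summed to 0.974 to 2.11 CPM in enterocytes, with 4 of 10 at 0. Leaving out the 1.98% to 2.78% of cells with a leukocyte UMI gave the same 3 members in all cells and the same 6 in goblet cells. It gave the same 2 plus Isg15 in enterocytes.

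Levels differed by cell type, given without a test because types were assigned from the same cells. Tuft cells had the highest mean CPM for 15 members, among them Oas1a, Oas2, Oasl2, Rtp4, Irf7, Irf9 and Stat2. Above the next type in every library were Dhx58 and Ifi27, the latter at 171 to 308 CPM against 92.3 to 145 in enteroendocrine cells. Dhx58 rested on 3 and 6 UMIs in the control and 6 and 9 in the ketogenic tuft cells, too low to be tested there. Rsad2, also highest in tuft cells, had 13 UMIs in them. Enteroendocrine cells were highest for 6 members, among them Ifit3 on 3 UMIs. Usp18, at 17.9 to 56.4 CPM against 2.35 to 11.7 in tuft cells, and Isg20, an RNA exonuclease, at 60.3 to 84.6 against 3.32 to 23.7 in the Paneth class, stood clear.

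Goblet cells were highest for 6 members, among them Isg15 at 9.33 to 49.9 CPM and Ifit1 at 2.04 to 12.1 CPM, and both overlapped with tuft cells. Ifitm3 was highest in stem cells, at 676 to 1074 CPM, next to 508 to 717 in transit amplifying cells. Enterocytes were highest for Parp9, Dtx3l and Irf8, whose ranges overlapped the next type.

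**Figure D5:**
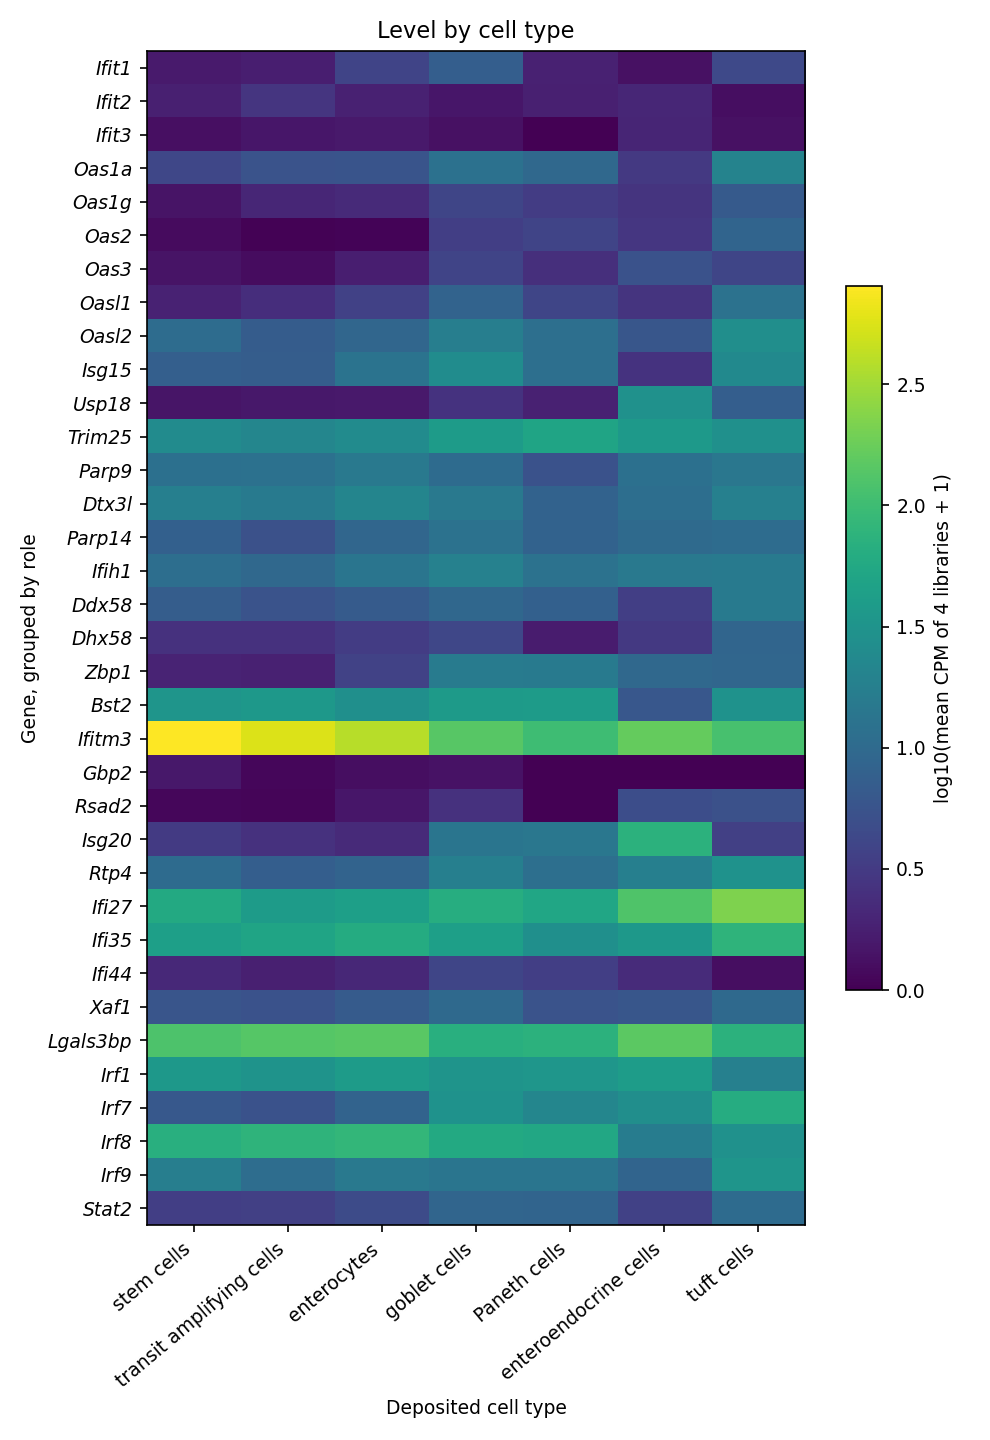
Mean CPM of the 4 libraries for each member (rows) in each deposited type (columns), as log10(CPM + 1), to be read along a row. Ifitm3 is brightest in stem cells, Ifi27 in tuft cells, and Usp18 and Isg20 in enteroendocrine cells.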

How the data were processed

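Single cells of the small intestine were measured in 4 libraries. The authors deposited 1 matrix of raw UMI counts and a cell table with library, diet and type. Cell Ranger 2.1.0 and mm10 are named per the submitters' processing notes. The labels do not describe cell filters, doublet handling or the naming of types, and no doublet caller was run. The deposited types were used as they stand.

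For each library, counts were added up over all cells and over each type (at least 20 cells in each library), and tested with edgeR 4.0.16 in R 4.3.3 (TMM, filterByExpr, quasi-likelihood test). Standard errors are the log2 fold change divided by the root of F. CPM values use TMM-adjusted library sizes, whereas those without the 10 richest cells use plain totals. Differences between types used 8 sums with library as a block. The tests were tested on simulated data. Alternatives were RLE size factors, DESeq2 1.42.0, a replicate block, no filter, leaving out each library, cells under 10% mitochondrial UMIs, no cells with a leukocyte UMI, thinned sums and an equal mix of types (limma 3.58.1). Intervals cover counting error only.

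The members and lists were chosen with earlier results of these data known. Named are all members past the threshold in a comparison, the 6 with the highest mean CPM in all cells, enterocytes and stem cells, and members past the threshold elsewhere. Each further list gives up to 4 genes past the threshold, or its 2 highest. Other genes were named after their values were seen. Gene positions come from GENCODE M21 (GRCm38), matched by symbol for all 35 members. Of the symbols on all lists, 8 were not in the matrix. Some genes on the further lists are not reported here.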

Additional observations from a re-analysis of the deposited data

Results flagged for a closer look

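The diet effect on 3 members differed between cell types by a test of the difference itself, with the values behind each in the report. For Ifit1, the effect in transit amplifying cells minus that in enterocytes was 5.52 on the log2 scale. In transit amplifying cells it rested on 1 and 3 UMIs in the controls against 0 and 10. Without ketogenic 2 the difference was -0.85. For Zbp1, the effect in goblet cells minus that in enterocytes was 2.11, or 1.64 without control 1. The Zbp1 effect in enteroendocrine cells minus that in enterocytes was 3.59. For Ifitm3, the effect in the Paneth class minus that in enterocytes was -0.99. Of these, the Zbp1 difference in goblet cells passed in 6 of 7 alternatives and that in enteroendocrine cells in 4 of 7, while the Ifitm3 difference passed in 0 of 7.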

How the results depend on the processing

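The share of all genes called was taken for the main fits, DESeq2 and the equal mix only. The other counts below have no such share beside them and cannot be read as particular to the members. The number of members called in all cells was 3. It was 6 with DESeq2, 12 with no filter on low counts and 0 with an equal mix of types, while leaving out 1 library gave 1 (without ketogenic 2) to 12 (without control 2). In enterocytes it was 2, against 6 with DESeq2, 13 with no filter and 4 with the replicate block, with a range of 0 (without ketogenic 1) to 15 (without control 2), 6 without control 1 and 1 without ketogenic 2. In goblet cells it was 6, against 1 with DESeq2 and 3 with no filter, with a range of 5 to 9. Where 0 were called, no filter gave 2 and the replicate block 1 in stem cells and in transit amplifying cells, each with a range of 0 to 2. The replicate block gave 1 in the Paneth class. Ranges were 0 to 1 in enteroendocrine cells and 0 to 2 in tuft cells. The number of differences between types that passed was 4, and 1 to 9 when a library was left out. The difference in the share of enterocytes, ketogenic minus control in percentage points, was -1.61 for Isg15 and -0.91 for Oasl2 at 2000 UMIs, -2.84 and -2.33 at 4000, and -3.67 and -3.79 unthinned. The labels do not say that replicate numbers pair libraries, and their deviations correlated at -0.01 over 12784 genes.

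Signs turned for the following, of which the Ifit1 difference alone was called, with ranges over leaving out 1 library. Ifi27 was -0.68 to 0.13 in all cells and -0.96 to 0.035 in stem cells, highest without control 2. Irf1 was -0.72 to 0.30 in all cells, -0.80 to 0.40 in enterocytes and -0.34 to 0.21 in stem cells, where leaving out control 1 turned each and ketogenic 2 also turned the last. Irf8 was -0.67 to 0.019 in all cells and -0.69 to 0.051 in enterocytes, highest without control 1. In stem cells Irf8 was -0.25 without control 2, -0.035 without ketogenic 2 and 0.33 without control 1. Ifitm3 was -0.12 to 0.043 in enterocytes (without ketogenic 1) and -0.58 to 0.0013 in stem cells (without control 1). The enteroendocrine median was -0.35 to 0.098 (without ketogenic 1), and the Ifit1 difference -0.85 (without ketogenic 2) to 6.18. The cause was not tested. With 1 library in a diet, its spread is taken from the other diet. Few UMIs limit Ifit3, Oas2, Rsad2, Gbp2 and the rare classes.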
